A study of Mus musculus with 16 samples.

Results

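Levels of 8 Kruppel-like factors (Klf2, Klf4, Klf5, Klf6, Klf9, Klf10, Klf13 and Klf15) were followed in vascular smooth muscle cells (VSMCs) of the mouse aorta and in the fibroblasts, endothelium and leukocytes captured with them. The members were given as a list of names, 8 out of 31055 measured genes. The data were 16 droplet single-cell RNA libraries, 1 per mouse, from the stretch between aortic root and arch, with unique molecular identifiers (UMIs) counted per gene and cell. All mice were 129S6/SvEv males that carried Myh11-CreER, a tamoxifen-inducible Cre on the Y chromosome that is driven by a smooth muscle myosin promoter, and all received tamoxifen at 6 weeks of age. Mice homozygous for a loxP-flanked Smad3 (Smad3SmKO) were set against Smad3+/+ mice, with 2 libraries of each genotype 10 weeks after tamoxifen, and 5 Smad3+/+ and 7 Smad3SmKO libraries 18 weeks after it. Viable nucleated cells had been sorted with no selection for a cell type or for the EGFP-L10a tracer that some mice carried.

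The 4 libraries of 10 weeks form batch 4 and were digested for 60 min. At 18 weeks, 7 libraries of batches 1 to 3 were digested for 30 min and 5 libraries of batches 5 and 6 for 60 min. Digestion time and batch therefore cannot be told apart, and neither can weeks and batch. The tracer label changed with digestion at 18 weeks, being None in all 30 min libraries and Myh11-GFP in all 60 min libraries. At 10 weeks it was Myh11-GFP in Smad3+/+ and None in Smad3SmKO, so label and genotype cannot be told apart there. Of 66349 barcodes, 50858 were kept, and cells were gated by the UMIs of defining genes: 8950 VSMCs (Myh11), 36066 fibroblasts (Dcn), 3303 endothelial cells (Pecam1 and Cdh5) and 3357 leukocytes (Ptprc and Tyrobp). The VSMC number ran from 22 to 1706 per library, and deposited UMIs from 12539539 to 52843031. Levels below are UMIs per 1000000 UMIs (CPM) in the sum of a class in a library. In the VSMC sums, 6 endothelial markers that the gates did not use were each at 0.306 to 1.86 CPM over all cells, against 36.1 to 330 CPM in the endothelium gate. The endothelium gate did not hold endothelium alone: 1813 of its cells also passed the fibroblast gate, and Dcn, a fibroblast proteoglycan, was at 7850 CPM. In the 1226 of its cells that passed that gate only, Dcn was at 119 CPM and the endothelial claudin Cldn5 at 532 CPM. The endothelial differences between classes are therefore also given for these cells where the call or the size changed. The fewest such cells in a library were 3, and sums of under 10 cells were not tested. These single-gate endothelial differences thus rest on fewer than 16 libraries. Between libraries, 315 of 50541 barcodes were shared, at most 11 by any pair. In 4 libraries GFP went against the tracer label. Smad3+/+ 18-week replicates 4 and 5, labelled Myh11-GFP, held no GFP UMIs in kept cells. The Smad3SmKO libraries of 10 weeks, labelled None, held 246 and 165. Smad3 RNA, at 668 UMIs or 7.58 CPM over all VSMCs, was not lower in the Smad3SmKO VSMCs, whose genotype is therefore given as labelled. In whole aortas the paper reports less Smad3 protein by immunoblot and less Smad3 RNA by qPCR in Smad3SmKO mice. The tag used here reads the 3' end of the transcript and cannot show the deleted exons. An entry named Sm3_intact in the deposited gene list held no UMIs in any library of either genotype, so it cannot tell them apart.

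Kruppel-like factors bind GC-rich and CACCC sequences through a conserved set of zinc fingers at the C-terminus, and activate or repress depending on the cofactors that the rest of the protein recruits. Klf2 and Klf4 are induced by laminar flow in endothelium, where they maintain a quiescent, anti-thrombotic state, and Klf4 also represses contractile genes when VSMCs change phenotype. Klf5 promotes proliferation of VSMCs after injury. Klf6 is an early response gene of injury, Klf10 was first described as an early gene induced by TGF-beta, and Klf13 is a close relative of Klf9. Klf9 and Klf15 are induced by glucocorticoids and follow a circadian rhythm in many tissues.

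The promoters of Klf2 and Klf4, the members with the highest correlation across VSMC libraries, and of the glucocorticoid-linked Klf9 and Klf15 are shown to set their sequences side by side. They are the 250 bases before the RefSeq start on GRCm38.p6, read 5′ to 3′ on the gene's own strand, at chr8:72318812-72319061 (plus strand) for Klf2, chr4:55532476-55532725 (minus strand) for Klf4, chr19:23140976-23141225 (plus strand) for Klf9 and chr6:90462326-90462575 (plus strand) for Klf15. Capitals mark CACGTG, the E-box that clock and other basic helix-loop-helix factors bind, and the last capitals of Klf15 are the start of a match that runs over the transcription start.
Klf2: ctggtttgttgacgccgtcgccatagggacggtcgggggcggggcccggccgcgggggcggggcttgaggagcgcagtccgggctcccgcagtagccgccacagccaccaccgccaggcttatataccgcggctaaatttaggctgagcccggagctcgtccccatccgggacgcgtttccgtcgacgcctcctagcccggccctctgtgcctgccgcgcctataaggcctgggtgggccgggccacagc
Klf4: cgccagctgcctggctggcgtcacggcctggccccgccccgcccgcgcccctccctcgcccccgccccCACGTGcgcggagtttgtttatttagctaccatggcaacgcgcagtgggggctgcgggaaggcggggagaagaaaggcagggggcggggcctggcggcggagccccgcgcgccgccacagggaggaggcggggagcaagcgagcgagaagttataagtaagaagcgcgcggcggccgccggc
Klf9: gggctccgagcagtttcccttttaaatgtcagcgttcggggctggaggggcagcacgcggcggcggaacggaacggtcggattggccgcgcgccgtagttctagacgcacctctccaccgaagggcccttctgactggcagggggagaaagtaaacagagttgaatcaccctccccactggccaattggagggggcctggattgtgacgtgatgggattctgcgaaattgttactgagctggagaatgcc
Klf15: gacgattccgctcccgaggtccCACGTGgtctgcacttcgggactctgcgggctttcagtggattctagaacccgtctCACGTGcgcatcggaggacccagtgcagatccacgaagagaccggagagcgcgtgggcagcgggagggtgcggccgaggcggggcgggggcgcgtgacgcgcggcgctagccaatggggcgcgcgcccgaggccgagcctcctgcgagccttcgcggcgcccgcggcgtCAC
The E-box CACGTG, which reads the same on either strand, occurred in 3 of the 6 members with a RefSeq promoter and in 7.15% of 32851 mouse promoters, all over windows of 300 bases that include 50 bases after the start. Klf15 held 3 matches and Klf4 and Klf6 held 1 each, while Klf2 and Klf9 held none. The GC box GGGCGG was found on either strand in 5 of the 6, Klf9 being without it, against 35.7% of all promoters. CACCC was found in 4 of 6 against 57.5%, and the Smad-type motif CAGAC in 1 of 6, Klf15, against 49.6%. The cAMP response element TGACGTCA and AGAACA, a single arm of the glucocorticoid response element, were in none of the 6, against 1.79% and 19% of all promoters. Klf5 and Klf10 had no entry in the promoter table used here. These are matches of letters in short windows and not sites shown to be bound.

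In the annotation of the same build (GRCm38, GENCODE M21), all 8 members are protein-coding genes. The pair described first, Klf2 (ENSMUSG00000055148), lies at chr8:72319033-72321656 on the plus strand, and Klf4 (ENSMUSG00000003032) at chr4:55527143-55532466 on the minus strand. Klf5 (ENSMUSG00000005148) is at chr14:99298691-99315036 and Klf6 (ENSMUSG00000000078) at chr13:5861482-5870394, both on the plus strand. Klf9 (ENSMUSG00000033863) is at chr19:23141226-23168134 and Klf15 (ENSMUSG00000030087) at chr6:90462576-90475238, both on the plus strand. Klf10 (ENSMUSG00000037465) is at chr15:38291463-38300706 and Klf13 (ENSMUSG00000052040) at chr7:63886351-63938915, both on the minus strand. Reads were counted over whole genes from the 3' end, so no value below distinguishes isoforms or exons.

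Differences between cell classes were tested within libraries by edgeR's quasi-likelihood test with the library as a block, adjusted over 12059 genes, and the classes differed in most genes. Of the 8 members, 6 differed between endothelium and VSMCs (65.2% of all genes did), 6 between fibroblasts and VSMCs (70.6%), 7 between leukocytes and VSMCs (80%), 5 between endothelium and fibroblasts (36.1%), 5 between leukocytes and fibroblasts (76.6%) and 5 between endothelium and leukocytes (74.1%). Most of these counts are close to the share of all genes, so the direction for each factor is what follows. With the whole gates, the factors fell into those lowest in VSMCs (Klf2, Klf4, Klf5, Klf10), 1 highest in VSMCs (Klf15), 1 highest in leukocytes (Klf6), 1 lowest in leukocytes (Klf9) and 1 with nearly level values (Klf13).

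**Figure D1:**
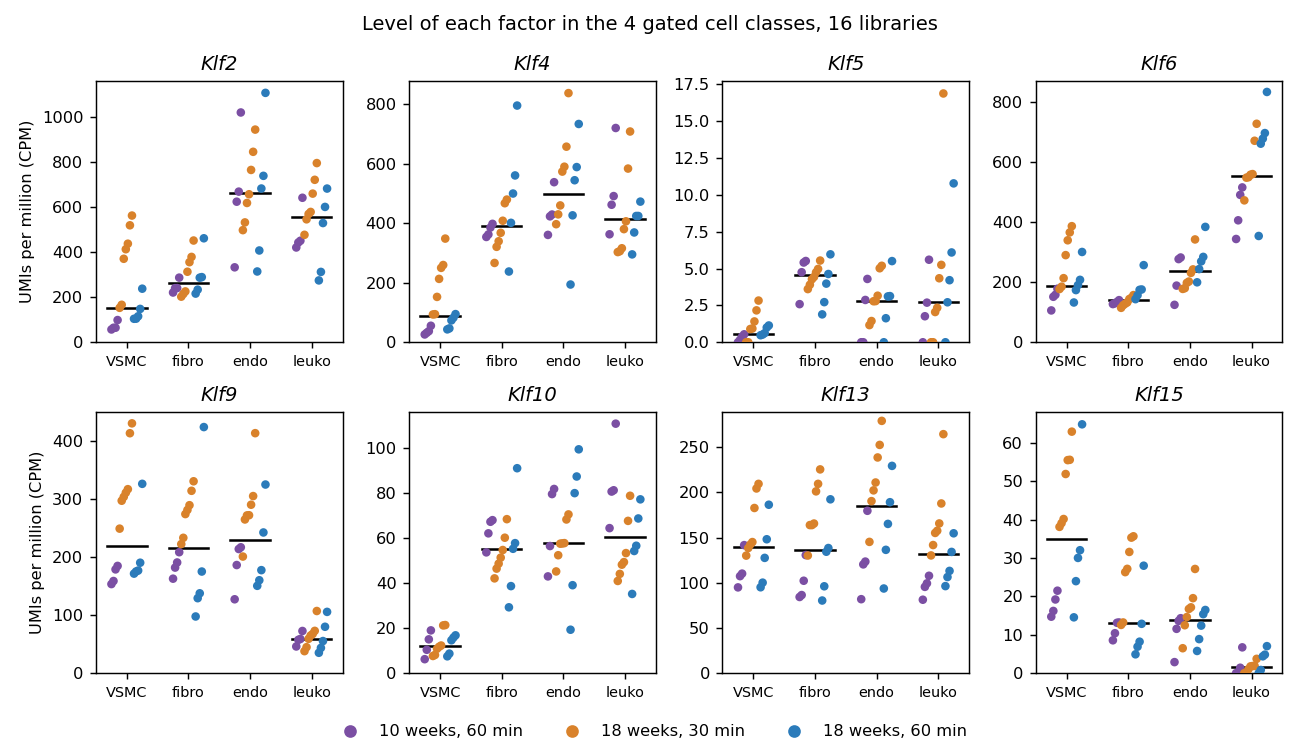
Level of each factor (y axis, CPM) in the sums of VSMCs, fibroblasts, endothelium and leukocytes (x axis), 1 point per library (n = 16), coloured by weeks and digestion time, with bars at the medians. Klf10 in VSMCs lies between 6.19 and 21.3 CPM, below every fibroblast library (29.2 to 91.0 CPM), while Klf15 in VSMCs, 14.6 to 64.9 CPM, lies above every leukocyte library.

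Klf2, the flow-induced factor, was lowest in VSMCs. Its level there ran from 56.7 to 562 CPM with a median of 150 CPM, against 202, 263 and 461 CPM (lowest, median, highest) in fibroblasts. In leukocytes it ran from 274 to 795 CPM with a median of 557 CPM, and in the endothelium gate from 314 to 1110 CPM with a median of 662 CPM. Relative to its lowest value the VSMC range was the widest, and it overlapped that of each other class. Endothelium exceeded VSMCs by 1.63 on the log2 scale (SE 0.20, adjusted p = 4.01e-10), in 15 of 16 libraries, and exceeded fibroblasts by 1.08 (SE 0.19, adjusted p = 7.7e-06), in 16 of 16. Endothelium and leukocytes did not differ past the threshold (adjusted p = 0.942). In endothelial cells that passed a single gate, Klf2 reached 1510 CPM pooled, the difference from VSMCs was 2.78 (SE 0.19), that from fibroblasts 2.08 (SE 0.19), and that from leukocytes became 0.74 (SE 0.18, adjusted p = 0.000405). Fibroblasts exceeded VSMCs by 0.56 (SE 0.19, adjusted p = 0.00957) in 11 of 16 libraries, but by 1.34 (SE 0.19) in the 60 min libraries alone and by -0.25 (SE 0.19, adjusted p = 0.274) in the 30 min libraries alone, so the call rested on the 60 min libraries.

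Klf4, which opposes the contractile program in VSMCs, had the same lowest class. It ran from 26.2 to 348 CPM in VSMCs (median 88.1 CPM), from 238 to 796 CPM in fibroblasts (median 392 CPM), from 194 to 838 CPM in the endothelium gate (median 499 CPM) and from 295 to 720 CPM in leukocytes (median 416 CPM). Only the highest VSMC libraries reached the range of the other classes, which lay over each other. Fibroblasts exceeded VSMCs by 2.00 on the log2 scale (SE 0.22, adjusted p = 1.25e-11) in 15 of 16 libraries, by 2.96 (SE 0.20) in the 60 min libraries alone and by 1.01 (SE 0.18) in the 30 min libraries alone. Endothelium exceeded VSMCs by 2.15 (SE 0.22, adjusted p = 2.03e-12) in 16 of 16 libraries, and by 2.49 (SE 0.24) for cells in a single gate. Leukocytes exceeded VSMCs by 2.26 (SE 0.22, adjusted p = 2.96e-13). The adjusted p between the other classes was 0.614 for endothelium and fibroblasts, 0.235 for leukocytes and fibroblasts and 0.632 for endothelium and leukocytes.

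Of the immediate early factors, Klf6 was highest in leukocytes, at 344 to 833 CPM with a median of 554 CPM. It ran from 106 to 386 CPM in VSMCs (median 188 CPM) and from 115 to 257 CPM in fibroblasts (median 142 CPM). The endothelium gate gave 125 to 384 CPM (median 237 CPM). Leukocytes exceeded each other class in all 16 libraries, VSMCs by 1.51 (SE 0.11, adjusted p = 4.15e-18) and fibroblasts by 2.08 (SE 0.11, adjusted p = 1.8e-23) on the log2 scale. Fibroblasts were below VSMCs by -0.57 (SE 0.11, adjusted p = 3.89e-06), in 14 of 16 libraries. This too depended on digestion, being -1.02 (SE 0.12) in the 30 min libraries and -0.18 (SE 0.11, adjusted p = 0.161) in the 60 min libraries. Between the endothelium gate and VSMCs the value was -0.03 (SE 0.11, adjusted p = 0.822), and in cells of a single gate it was 0.63 (SE 0.13, adjusted p = 2.53e-05). With the whole gates it was -0.43 (SE 0.12, adjusted p = 0.00455) in the 30 min libraries alone and 0.30 (SE 0.11, adjusted p = 0.0274) in the 60 min libraries alone, so its direction turned both with the cells counted and with digestion. It was 0.01 to 0.03 without Smad3+/+ replicate 1 or Smad3SmKO replicate 2, 3 or 6 of 18 weeks. Endothelium exceeded fibroblasts by 0.54 in the whole gate and by 1.15 (SE 0.13, adjusted p = 3.52e-11) in a single gate.

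Klf10, the TGF-beta-inducible early gene, separated VSMCs from every other class. VSMC sums lay between 6.19 and 21.3 CPM with a median of 12 CPM. Fibroblasts lay between 29.2 and 91.0 CPM (median 55.0 CPM), the endothelium gate between 19.3 and 99.4 CPM (median 57.7 CPM) and leukocytes between 35.2 and 111 CPM (median 60.5 CPM). VSMCs were the lowest class in each of the 16 libraries, with no overlap with fibroblasts or leukocytes. The difference from VSMCs was 2.11 (SE 0.11, adjusted p = 1.18e-22) for fibroblasts, 2.16 (SE 0.12, adjusted p = 8.87e-22) for endothelium and 2.45 (SE 0.12, adjusted p = 2.8e-24) for leukocytes on the log2 scale. Endothelium exceeded VSMCs by 2.69 (SE 0.15) for cells in a single gate. The other classes stood close together, leukocytes being above fibroblasts by 0.34 (SE 0.10, adjusted p = 0.00256) and endothelium below leukocytes by -0.30 (SE 0.11, adjusted p = 0.0134), the latter -0.07 (SE 0.14, adjusted p = 0.698) in a single gate. Endothelium against fibroblasts was 0.05 (adjusted p = 0.764) in the whole gate and 0.43 (SE 0.13, adjusted p = 0.00388) in a single gate.

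Klf5 was the factor with the fewest UMIs. It had 51 UMIs over all VSMCs, with a library median of 0.58 CPM and a highest value of 2.83 CPM. Fibroblasts held 1526 UMIs at 1.89 to 5.97 CPM (median 4.53 CPM) and were above VSMCs in 16 of 16 libraries, by 2.68 on the log2 scale (SE 0.32, adjusted p = 1.36e-10). In leukocytes 86 of 105 Klf5 UMIs came from the 836 cells with at least 20 UMIs of the neutrophil genes S100a8 and S100a9 together. Klf5 was at 24.8 CPM in these cells, and 19 UMIs in the other 2521 cells gave 0.849 CPM. Leukocytes exceeded VSMCs by 2.86 (SE 0.39, adjusted p = 5.51e-09) with these neutrophil-like cells and by 0.58 (SE 0.51, adjusted p = 0.296) without them. Endothelium against leukocytes changed sign with the same step, from -1.04 (SE 0.35, adjusted p = 0.00672) to 1.26 (SE 0.44, adjusted p = 0.00906). In the neutrophil-like cells Klf4 was at 110 CPM against 500 CPM in the other leukocytes, while Klf2 was at 1090 CPM against 499 CPM. These are pooled values over cells, and were not tested. Klf5 in endothelial cells of a single gate rested on 14 UMIs, and that difference was not tested.

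Of the glucocorticoid-linked factors, Klf15 was highest in VSMCs, and Klf9 was about level there with fibroblasts and the endothelium gate. Klf15 ran from 14.6 to 64.9 CPM in VSMCs (median 35.1 CPM), from 4.90 to 35.7 CPM in fibroblasts (median 13.2 CPM), from 2.87 to 27.2 CPM in the endothelium gate (median 14 CPM) and from 0 to 7.03 CPM in leukocytes (median 1.58 CPM, 69 UMIs in all). In each of the 16 libraries VSMCs were above the other 3 classes. Fibroblasts differed from VSMCs by -1.13 (SE 0.15, adjusted p = 3.29e-09) on the log2 scale, the endothelium gate by -1.66 (SE 0.18, adjusted p = 2.93e-11) and leukocytes by -3.82 (SE 0.26, adjusted p = 9.71e-19). For endothelial cells in a single gate, where 31 UMIs gave 3.6 CPM, the difference from VSMCs was -3.68 (SE 0.28, adjusted p = 5.19e-17) and that from fibroblasts -2.63 (SE 0.29), against -0.53 (SE 0.18, adjusted p = 0.016) in the whole gate. For leukocytes in a single gate, which held 11 Klf15 UMIs, the difference from VSMCs was -6.00 (SE 0.33, adjusted p = 5.59e-23).

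Klf9 was about level in VSMCs (153 to 430 CPM, median 220 CPM), fibroblasts (97.6 to 424 CPM, median 215 CPM) and the endothelium gate (127 to 413 CPM, median 230 CPM), and lower in leukocytes (35.0 to 107 CPM, median 58.9 CPM). Leukocytes were below VSMCs in 16 of 16 libraries, by -1.88 on the log2 scale (SE 0.11, adjusted p = 3.52e-21). Endothelium was below VSMCs by -0.23 (SE 0.10, adjusted p = 0.0474) in 10 of 16 libraries, a call close to the threshold that was lost under many alternatives, and by -0.44 (SE 0.11, adjusted p = 0.000563) for cells in a single gate. Fibroblasts and VSMCs did not differ past the threshold (adjusted p = 0.0688). Endothelium against fibroblasts was -0.02 (adjusted p = 0.897) in the whole gate and -0.29 (SE 0.11, adjusted p = 0.0206) in a single gate. Klf13, a broadly expressed relative of Klf9, ran from 94.9 to 209 CPM in VSMCs (median 140 CPM), 80.3 to 225 CPM in fibroblasts (median 136 CPM), 81.8 to 279 CPM in the endothelium gate (median 184 CPM) and 81.2 to 264 CPM in leukocytes. With the whole gates it was called only between endothelium and fibroblasts, at 0.20 (SE 0.07, adjusted p = 0.0162) in 15 of 16 libraries, and at 0.35 (SE 0.08) for cells in a single gate. In a single gate endothelium also exceeded VSMCs, by 0.33 (SE 0.09, adjusted p = 0.000673), and leukocytes, by 0.24 (SE 0.09, adjusted p = 0.016), against 0.12 (adjusted p = 0.1) and 0.10 (adjusted p = 0.179) in the whole gate.

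Other genes were read beside the members by fixed lists. Over all genes, 70.6% were called between fibroblasts and VSMCs and 65.2% between endothelium and VSMCs. Of the 18 other Kruppel-like and Sp factors, 9 were tested between classes. In fibroblasts against VSMCs, 3 were higher (Klf11 at 0.52, Klf3 at 0.42 and Sp3 at 0.28 on the log2 scale) and 1 lower (Sp2 at -0.19), with a list median of 0.19 beside 0.03 over all genes. In endothelium against VSMCs 4 were higher (Klf3 at 0.72, Klf11 at 0.54, Klf7 at 0.40 and Klf16 at 0.37) and none lower. With the whole gate, all 7 tested endothelial genes linked to Klf2 and Klf4 were higher in endothelium than in VSMCs. Among them were the VEGF receptor Kdr (7.63), the sphingosine receptor S1pr1 (6.35), the adhesion receptor Sele (5.02) and nitric oxide synthase Nos3 (3.6). The cells were gated by endothelial genes, so this direction was set by the gate and shows nothing about Klf2 or Klf4. Of 20 immediate early and stress genes, 15 were higher and 3 lower in fibroblasts than in VSMCs (list median 0.95).

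Digestion time was compared at 18 weeks, with genotype as a term. Batch could not be a term, as digestion time was the same within a batch, so libraries of a batch counted as independent. In VSMCs, Klf4 and Klf2 were lower in the 5 libraries of 60 min than in the 7 of 30 min, and no member was called in fibroblasts of the same libraries. Klf4 ran from 93.4 to 348 CPM (median 213 CPM) in the VSMCs of 30 min libraries. In the 60 min libraries it was 82.7 and 46.7 CPM in Smad3+/+ and 43.3, 94.7 and 73.5 CPM in Smad3SmKO. The groups overlapped by a single library, the Smad3SmKO replicate 6. The log2 difference was -1.37 (SE 0.31, adjusted p = 0.0214), that is 2.59-fold lower. Klf2 ran from 153 to 562 CPM (median 413 CPM) in the 30 min libraries. In the 60 min libraries it was 148 and 115 CPM in Smad3+/+ and 105, 238 and 104 CPM in Smad3SmKO, so that only replicate 6 reached the 30 min range. The log2 difference was -1.24 (SE 0.32, adjusted p = 0.0449), or 2.37-fold lower. These 2 of the 7 members tested were called, against 3.29% of 11058 genes.

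The Klf2 call sat at the threshold. It was lost in cells of a single gate (-1.0, adjusted p = 0.104) and on leaving out any library but Smad3+/+ replicate 2 or Smad3SmKO replicates 3 and 6, with values of -1.55 to -1.05. In limma voom with batch as a random block, the Klf2 value was -1.17 (SE 0.34, adjusted p = 0.0749), and Klf4 kept its call. Klf4 lost its call without Smad3+/+ replicate 5 (-1.25, adjusted p = 0.0834) or Smad3SmKO replicate 5 (-1.25, adjusted p = 0.0597). Without Smad3SmKO replicate 6, Klf9 (-0.78, adjusted p = 0.0144) and Klf15 (-0.92, adjusted p = 0.0267) were called as well. Klf9 was at 249 to 430 CPM in the 30 min VSMCs and at 171 to 326 CPM in the 60 min VSMCs, with a log2 difference of -0.54 (SE 0.19, adjusted p = 0.139). For Klf15 the ranges were 38.1 to 63.0 CPM and 14.6 to 64.9 CPM (-0.53, SE 0.29, adjusted p = 0.372), and for Klf6 they were 177 to 386 CPM and 132.4 to 301 CPM (-0.38, SE 0.21, adjusted p = 0.387). In each of these, replicate 6 was the highest 60 min library. For Klf6 the other Smad3SmKO libraries of 60 min also lay within the 30 min range. Klf10 (7.61 to 21.3 CPM and 7.46 to 16.8 CPM) and Klf13 (130 to 209 CPM and 95.0 to 186 CPM) overlapped over most of their ranges, and Klf5 was not tested.

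**Figure D2:**
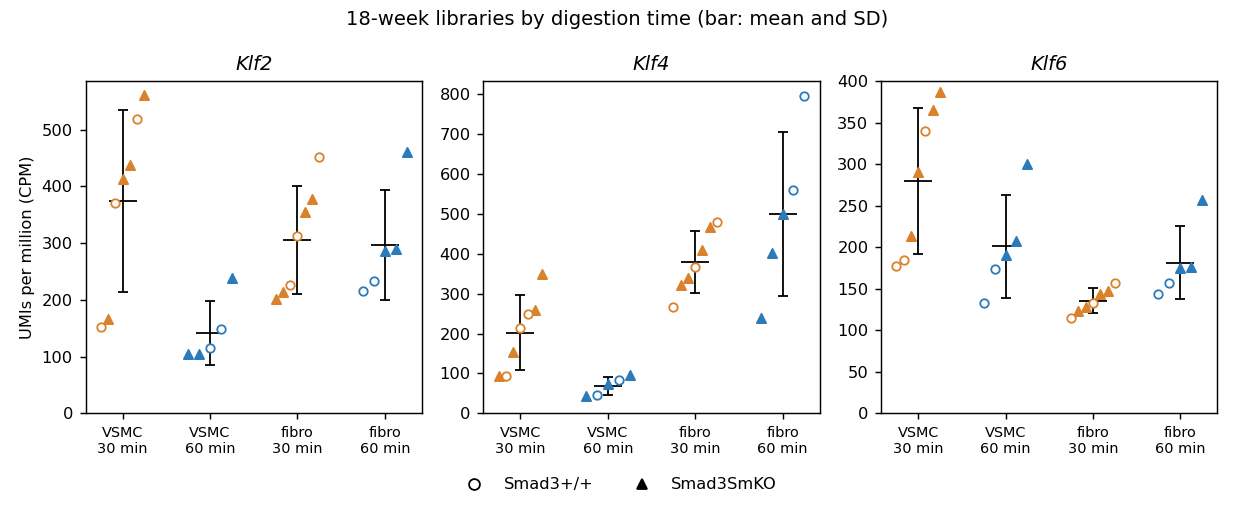
Klf2, Klf4 and Klf6 (y axis, CPM) in the VSMC and fibroblast sums of the 18-week libraries, by digestion time (x axis, n = 7 at 30 min and n = 5 at 60 min). Colour marks digestion time and shape marks genotype (open circles Smad3+/+, triangles Smad3SmKO), with bars for mean and SD. The VSMC mean of Klf4 is 202 CPM at 30 min and 68.2 CPM at 60 min, while the fibroblast mean is 379 CPM and 499 CPM.

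In fibroblasts none of the 8 members was called, against 1.71% of 15267 genes. At an unadjusted p under 0.05 there were 2 (Klf4 and Klf6), and DESeq2 called 1 (Klf6). Klf4 was at 267 to 480 CPM in the 30 min libraries and at 796, 561, 402, 500 and 238 CPM in the 60 min libraries, a log2 difference of 0.56 (SE 0.24, adjusted p = 0.227). Klf6 was at 115 to 157 CPM in the 30 min libraries and at 157, 144, 176, 257 and 175 CPM in the 60 min libraries, a difference of 0.61 (SE 0.16, adjusted p = 0.0673). Klf2 ran from 202 to 451 CPM and from 216 to 461 CPM, with a difference of 0.14 (SE 0.26, adjusted p = 0.818). The fibroblast values of 30 and 60 min overlapped for each of these 3 factors. Klf6 passed without Smad3+/+ replicate 1 (0.69, adjusted p = 0.0489), and Klf9 without Smad3SmKO replicate 6 (-0.89, adjusted p = 0.0214). In the endothelium gate none of 8 was called (2.85% of all genes were), 1 had an unadjusted p under 0.05 (Klf6), and DESeq2 called 0. In endothelial cells of a single gate none of the 6 tested was called, with 1 (Klf10, 0.88) at an unadjusted p under 0.05. In leukocytes none of 7 was called (6.93% of all genes), 0 had an unadjusted p under 0.05, and DESeq2 called 0.

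The difference between the VSMC and the fibroblast response was tested within the 12 libraries, again without a batch term. In it 3 of the 8 members passed, against 1.92% of 13250 genes. Klf4 fell in VSMCs relative to fibroblasts by -1.86 on the log2 scale (SE 0.32, adjusted p = 0.00962), Klf2 by -1.32 (SE 0.28, adjusted p = 0.0261) and Klf6 by -0.93 (SE 0.14, adjusted p = 0.0059). With the Smad3SmKO libraries alone none of the 3 passed, and with the Smad3+/+ libraries alone Klf4 passed (-2.41, adjusted p = 0.000152) but not Klf2 (-0.81, adjusted p = 0.0956) or Klf6 (-0.81, adjusted p = 0.0586). With both genotypes, Klf2 did not pass (adjusted p = 0.0522 to 0.0697) without Smad3+/+ replicate 1, 3 or 5 or Smad3SmKO replicate 1 or 5. The values for Klf9 (adjusted p = 0.997), Klf10 (adjusted p = 1), Klf13 (adjusted p = 0.583) and Klf15 (adjusted p = 0.367) did not pass.

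Cell number and the levels of marker genes differed in the same libraries. The 30 min libraries held 22 to 259 VSMCs and the 60 min libraries 319 to 1381, with median UMIs per VSMC of 6914 to 14684 and 9648 to 21902. In the VSMC sums, the 6 endothelial markers together came to 0.9 to 17.4 CPM at 30 min and 1.96 to 15.8 CPM at 60 min, with medians of 10.7 and 3.89 CPM. Egfl7 had medians of 4.04 and 1.55 CPM and Emcn of 2.16 and 0.786 CPM. Cldn5, Kdr, Tie1 and Vwf went the other way, with medians of 0 at 30 min. At 60 min their medians were 0.524, 0.212, 0.524 and 0.333 CPM. The 5 VSMC markers came to 32900 to 56400 CPM (median 48700 CPM) at 30 min and 54500 to 71200 CPM (median 60600 CPM) at 60 min. The 6 fibroblast markers came to 896 to 1530 CPM and 1070 to 2980 CPM. Most of it was Col1a1 (medians 427 and 757 CPM) and Col3a1 (589 and 976 CPM). Pi16 also had a higher median at 60 min (15.5 and 26.1 CPM). Medians were lower at 60 min for Lum (67.1 and 55.4 CPM), Serpinf1 (56.9 and 54.2 CPM) and Pdgfra (3.77 and 3.41 CPM). The 6 leukocyte markers came to 7.61 to 133 CPM and 22.5 to 526 CPM, led by Cd74 (medians 66.7 and 139 CPM). The other leukocyte markers also had higher medians at 60 min. The 3 heart muscle markers came to 39 to 476 CPM and 125 to 259 CPM, with medians of 319 and 169 CPM. Nearly all of it was Tnnt2 (medians 319 and 168 CPM). Myh6 (0.45 and 1.22 CPM) and Myl3 (0 and 0.0529 CPM) had higher medians at 60 min. The 4 pericyte markers came to at most 1210 CPM and 877 CPM, with medians of 314 and 474 CPM. Rgs5 led them (medians 238 and 445 CPM), while Higd1b, Kcnj8 and Vtn had lower medians at 60 min. The part of these in the Klf2 and Klf4 difference was not tested.

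Among the listed genes in the VSMC comparison by digestion, Klf7 was the only one of 9 tested relatives that was called (-0.69, adjusted p = 0.00866). Of 20 immediate early and stress genes, 2 were lower, the antiproliferative gene Btg2 (-1.05) and the heat shock gene Hspa1a (-1.65), with a list median of -0.39 beside 0 over all genes. Of 13 clock and glucocorticoid-induced genes 1 was lower, the glucocorticoid-induced leucine zipper Tsc22d3 (-1.94), and 12 of the 13 had a negative value. None of 9 contractile genes and none of 9 TGF-beta targets was called by edgeR, with 5 and 2 at an unadjusted p under 0.05 and 2 and 1 called by DESeq2. In fibroblasts the same 20 immediate early genes all had positive values and 2 were called, the stress factor Atf3 (1.41) and Ier3 (1.41). The difference between the 2 responses was negative for all 20 and called for 6, among them Atf3 (-1.99), the chaperones Dnajb1 (-1.51) and Hspa1a (-1.50) and the mRNA decay factor Zfp36 (-1.33). Klf2, Klf4 and Klf6 had the sign of this list in the difference, while Klf9 and Klf15 had negative values in VSMCs and fibroblasts alike.

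The VSMCs of 10 weeks, all digested for 60 min, had the lowest Klf2 levels, with Klf4 and Klf15 toward the low end of their ranges. Klf2 was at 64.2 and 98.5 CPM in the Smad3+/+ libraries of 10 weeks and at 64.5 and 56.7 CPM in the Smad3SmKO libraries, all below the 104 to 238 CPM of the 60 min libraries of 18 weeks. Klf4 was at 37.3 and 55.5 CPM in Smad3+/+ and at 26.2 and 32 CPM in Smad3SmKO, against 43.3 to 94.7 CPM. Klf15 was at 21.5 and 16.2 CPM and at 19.2 and 14.7 CPM, against 14.6 to 64.9 CPM. The Klf2 ranges did not overlap, and those of Klf4 and Klf15 did. No test was made, since the 10-week libraries are a single batch, with 5812 to 7062 median UMIs per VSMC.

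**Figure D3:**
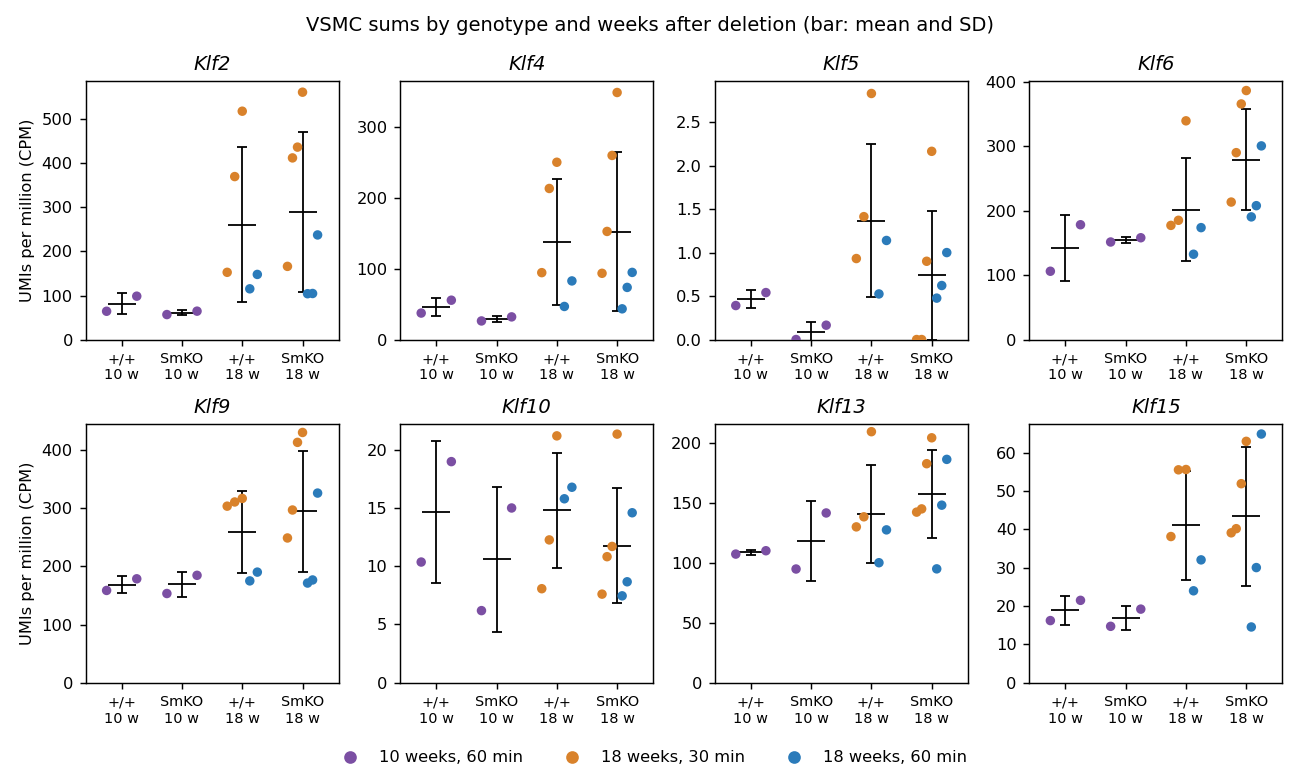
Level of each factor in the VSMC sums (y axis, CPM) by genotype and weeks after tamoxifen (x axis, n = 2, 2, 5 and 7 libraries), coloured by digestion time, with bars for mean and SD. At 18 weeks the 30 min libraries (orange) lie above most 60 min libraries (blue) for Klf2 and Klf4 within either genotype, and Klf2 spans 115 to 519 CPM in Smad3+/+ and 104 to 562 CPM in Smad3SmKO.

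The comparison that the study was built for, Smad3SmKO against Smad3+/+ VSMCs, gave no call for any member at either time. The fit held batch as a term, and 7 members were tested, Klf5 being too low. Batch 5, with Smad3SmKO replicates 5 and 7 of 18 weeks, had no control, so these libraries informed only the spread. At 10 weeks 0 of the 7 passed (0% of 11852 genes, with 219 genes at an unadjusted p under 0.05 and 1 called by DESeq2), and no member had an unadjusted p under 0.05. At 18 weeks 0 of the 7 passed (0.0422% of genes, 5 in number, 8 by DESeq2 and 582 at an unadjusted p under 0.05), with 1 member at an unadjusted p under 0.05. The difference between both times was called for 0 of the 7 (0.00844% of genes, and 306 genes but no member at an unadjusted p under 0.05). DESeq2 called 0 members in each. The few genes called at 18 weeks included Pmepa1, a TGF-beta feedback inhibitor, at -0.98 (SE 0.13, adjusted p = 0.00591).

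At 18 weeks 6 of the 7 values were positive. Klf6 was at 340, 177, 185, 174 and 132.4 CPM in the 5 Smad3+/+ libraries and at 190 to 386 CPM in the 7 Smad3SmKO libraries (median 290 CPM). Each Smad3SmKO library was above 4 of the 5 controls, and Smad3+/+ replicate 1 lay among them. The log2 difference was 0.54 (SE 0.21, unadjusted p = 0.0207 in edgeR's quasi-likelihood test, adjusted p = 1), the only member value with an unadjusted p under 0.05 in any genotype comparison. Within the 4 batches that hold both genotypes at 18 weeks, it was higher in Smad3SmKO in 3, by 0.98 in batch 2, 0.27 in batch 3 and 0.97 in batch 6, and -0.01 in batch 1. With the 30 min libraries alone it was 0.31 (SE 0.21). With the 60 min libraries alone it was 1.09, a value that rested on a single Smad3SmKO library. This was replicate 6, set against Smad3+/+ replicates 4 and 5 of the same batch.

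Klf9 was at 317, 304, 311, 175 and 190 CPM in Smad3+/+ and at 171 to 430 CPM in Smad3SmKO (median 297 CPM), with a difference of 0.34 (SE 0.17, adjusted p = 1). Klf15 was at 55.6, 55.6, 38.2, 32.1 and 24.0 CPM in Smad3+/+ and at 14.6 to 64.9 CPM in Smad3SmKO (median 40.2 CPM), with a difference of 0.49 (SE 0.28, adjusted p = 1). The genotypes overlapped for both. A single library carried most of it: replicate 6, the only Smad3SmKO library of batch 6, had 326 CPM of Klf9 and 64.9 CPM of Klf15, against 175 and 190 CPM and 32.1 and 24.0 CPM in the 2 controls of that batch. Without it the Klf15 value was -0.11, and in the 30 min libraries alone it was -0.09 (SE 0.25), with 0.08 (SE 0.19) for Klf9. The same library had the highest fibroblast level of Klf9 (424 CPM, against 97.6 to 175 CPM in the other 60 min libraries of 18 weeks) and of Klf6 (257 CPM).

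For Klf2 the difference at 18 weeks was 0.40 (SE 0.33, adjusted p = 1) and for Klf4 0.30 (SE 0.32, adjusted p = 1), and both ranges overlapped from end to end. Batch 3, whose Smad3SmKO library held 22 VSMCs, gave 1.88 for Klf2 and 1.88 for Klf4, and batch 1 gave -0.84 and -0.79. At 10 weeks the Klf4 value was -0.67 (SE 0.49, adjusted p = 1), with the 2 Smad3SmKO libraries below both controls. The change in genotype effect between the times did not pass for it (adjusted p = 1).

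**Figure D4:**
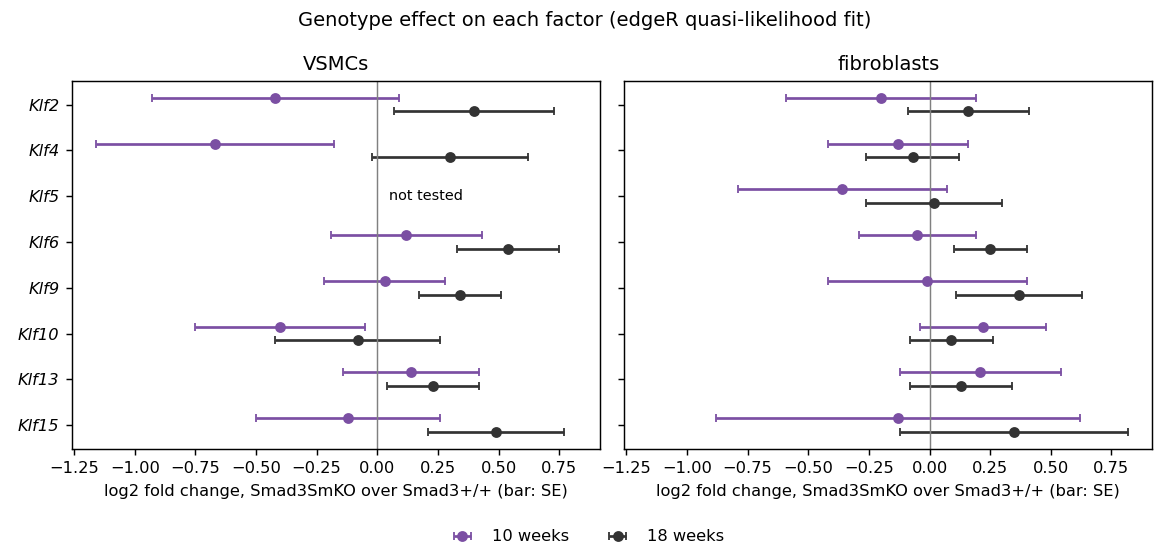
Log2 fold change of each factor in Smad3SmKO over Smad3+/+ (x axis) in VSMCs (left) and fibroblasts (right) at 10 weeks and 18 weeks after tamoxifen, from the edgeR fit with batch as a term, with bars for the SE. No value passed the adjusted threshold, and the VSMC value of Klf6 at 18 weeks, 0.54, is the farthest from 0 in units of its SE.

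The classes in which Myh11 does not drive the Cre gave no call either. In fibroblasts 0 of 8 members passed at 10 weeks, at 18 weeks or in the difference between them (0% of 14626 genes in each), in the endothelium gate 0 of 8 (0% of 11683 genes) and in leukocytes 0 of 7 (0% of 9770 genes). With the whole gates no member had an unadjusted p under 0.05 in these 9 comparisons, while 119 to 427 genes did, and DESeq2 called 0 members and at most 7 genes in any of them. The genotype effect did not differ between VSMCs and fibroblasts for any of the 8 members at 10 or 18 weeks (0% of 14475 genes called, 228 and 633 at an unadjusted p under 0.05, none of them members, and 1 and 3 by DESeq2). A p that misses the threshold does not show that the levels were equal. The SE at 18 weeks in VSMCs was 0.17 to 0.34 on the log2 scale, and at 10 weeks 0.25 to 0.51.

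Across the VSMC sums of the 16 libraries, which share depth, digestion and batch, the gene of 5354 most like Klf2 was Klf4, with a Spearman correlation of 0.938, or 0.856 after batch means were taken off. Klf2 was followed there by Errfi1, the feedback inhibitor of EGF receptor signalling (0.921 and 0.747), and Chd1 (0.900 and 0.732). Klf4 was most like the T-box repressor Tbx2 (0.968 and 0.794), Errfi1 (0.953 and 0.726) and Tmem51 (0.947 and 0.703). Klf6 was most like the chaperone gene Hsp90ab1 (0.944 and 0.797), then Ahsa2 (0.888 and 0.756) and Fip1l1 (0.859 and 0.824). Klf15 was most like Cebpd, a C/EBP factor (0.894 and 0.615), then Gon4l (0.862 and 0.647) and Kif5b (0.850 and 0.5). For Klf9 the order was Bicd1 (0.824 and 0.529), Timp4 (0.821 and 0.582) and Klf15 (0.818 and 0.494). Klf10 had lower values, led by Hivep1 (0.753 and 0.647). Klf5, from 51 UMIs, was led by Stat6 (0.857 and 0.418). Among pairs of members, Klf2 and Klf4 had the highest value over all libraries and within batch. Over all libraries Klf9 with Klf15 (0.818) and Klf2 with Klf15 (0.806) came next. Within batch it was Klf2 with Klf6 (0.674), Klf9 with Klf13 (0.668) and Klf13 with Klf15 (0.585), while Klf2 with Klf15 was at 0.306. These are descriptions over libraries that differ in weeks and digestion, and the within-batch values are the ones free of those differences between batches.

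**Figure D5:**
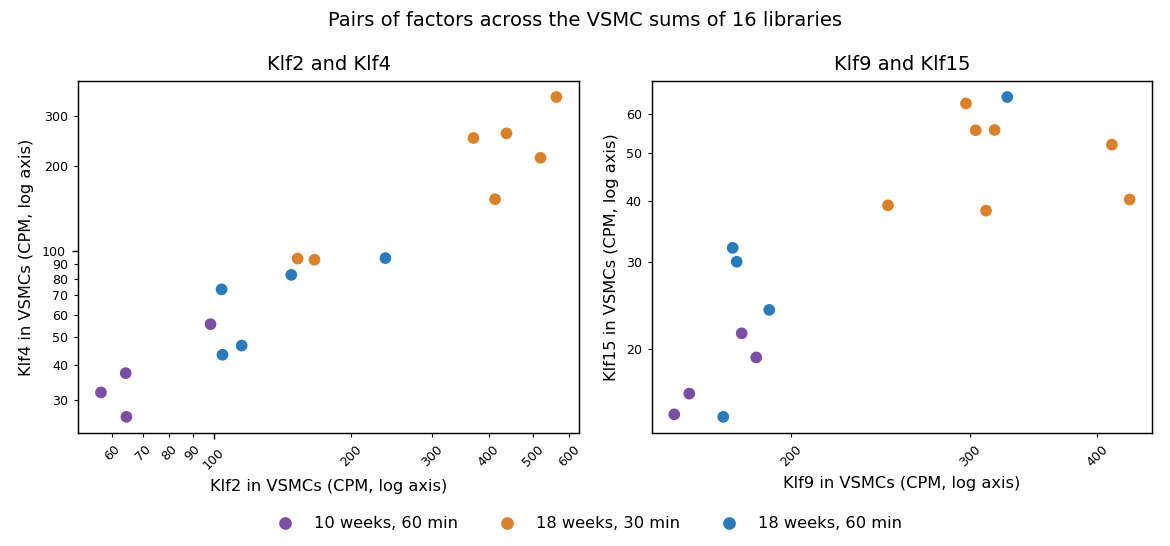
Klf4 against Klf2 (left) and Klf15 against Klf9 (right) in the VSMC sums of the 16 libraries, in CPM on log axes, coloured by weeks and digestion time. Klf2 and Klf4 rise together from the 10-week libraries (56.7 and 32 CPM for the lowest Klf2) to the 30 min libraries of 18 weeks (562 and 348 CPM for the highest).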

How the data were processed

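The deposited counts are whole-number UMIs per gene and cell for each of the 16 libraries, which the authors made with Cell Ranger (version 6 per the submitters' processing notes, 4.0.0 in the matrix headers) on mm10 with GFP added. Cells with more than 600 and under 6000 genes, more than 2000 and under 50000 UMIs and under 25% mitochondrial UMIs were kept, as in the study, with no doublet caller. Gates were Myh11 of at least 5 UMIs and above Dcn, Dcn of at least 5 and above Myh11, Pecam1 plus Cdh5 of at least 2, and Ptprc plus Tyrobp of at least 2. UMIs were summed per library and class (at least 10 cells), so that the mouse was the replicate, and tested with edgeR 4.0.16 (quasi-likelihood, TMM, filterByExpr, two-sided) in R 4.3.3, with Benjamini-Hochberg adjustment over all genes tested and a threshold of 0.05. The study's own test ranked cells. Alternatives were DESeq2 1.42.0, limma 3.58.1 (voom), other gates and filters, parts of the libraries and leaving out each library. Fits were tested on simulated counts. Named genes were all 8 members, of each list those called (up to 4, by size of change), and the 3 genes most like each member among those of at least 20 CPM. Those of Klf13 are not reported here. Members and lists were chosen with earlier results of these data known. Replicate numbers follow accession order.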

Additional observations from a re-analysis of the deposited data

Results flagged for a closer look

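In groups of 4 to 10 libraries, 5 of 64 sets of member values held a library far from the rest by Dixon's criterion, where chance flags about 1 in 20. Klf6 in VSMCs was at 340 CPM in Smad3+/+ 18-week replicate 1, and in fibroblasts at 257 CPM in Smad3SmKO 18-week replicate 6. In leukocytes, Klf4 was at 708 CPM in Smad3SmKO 18-week replicate 2, and in replicate 3 of that group Klf5 was at 16.9 CPM and Klf13 at 264 CPM.

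The response to digestion time differed between VSMCs and fibroblasts of the same libraries for 3 members by the test of the difference itself (edgeR, adjusted over all genes): Klf2 by -1.32, Klf4 by -1.86 and Klf6 by -0.93 on the log2 scale.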

How the results depend on the processing

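Of 52 differences followed, 39 of them called, 1384 values were computed under alternatives: 1366 kept their direction, 18 reversed it, 71 lost the call (28 of them on leaving out a library) and 8 gained one, counting reversed values. The number of members called for digestion in VSMCs was 2, and became 1 with cells in exactly 1 gate, gates set on cells thinned to 2000 UMIs, at least 30 cells per sum or limma voom, and 0 in Smad3+/+ or Smad3SmKO libraries alone. Leaving out each library gave 0 to 4, the 4 without Smad3SmKO replicate 6. In fibroblasts it was 0, with 1 by DESeq2 and 1 in Smad3+/+ alone, and 0 to 1 on leaving out a library (1 without Smad3+/+ replicate 1 or Smad3SmKO replicate 6). Between endothelium and fibroblasts the 5 became 1 in Smad3+/+ alone and 3 in the 30 min or the 60 min libraries alone, and between endothelium and leukocytes the 5 became 3 in Smad3+/+ alone and 3 in the 30 min libraries alone. For the difference in digestion response the 3 became 0 in Smad3SmKO alone. All other counts of members called stayed within 1.5 times, the genotype counts at 0 throughout.

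Reversed values on the log2 scale were, for the genotype effect in VSMCs at 18 weeks, Klf4 at -0.06 with at least 30 cells and -0.06 to 0.79 on leaving out a library (-0.06 without Smad3+/+ replicate 2 or Smad3SmKO replicate 4), and Klf15 at -0.09 in the 30 min libraries, -0.13 without Smad3+/+ replicates 4 and 5 and -0.11 to 0.76 on leaving out a library (-0.11 without Smad3SmKO replicate 6). Klf2 by digestion in fibroblasts was -0.38 in Smad3+/+ alone and -0.08 without Smad3SmKO replicate 6. Klf2 in fibroblasts against VSMCs was -0.25 in the 30 min libraries. Klf6 in endothelium against VSMCs was 0.63 in exactly 1 gate, 0.48 with thinned gates, 0.05 in Smad3+/+ alone, 0.30 in the 60 min libraries and 0.01 to 0.03 on leaving out a library. Klf5 in endothelium against leukocytes was 1.26 without neutrophils. Beyond the cells or libraries each alternative takes out, the cause was not tested.

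With 2 libraries per genotype, the 10-week comparison has the widest errors, and sums of 22 to 97 VSMCs limit 5 of the 30 min libraries. No paired analysis was possible because replicate numbers follow accession order and pair no mice. Batch was a term of the genotype fit, and every batch but batch 5 held both genotypes. Batch 5 held Smad3SmKO alone (replicates 5 and 7 of 18 weeks) and informed only the spread. Classes were compared within library. Free RNA from other cells was not removed.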
